A study of Rattus norvegicus with 8 samples.

Results

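Expression of Nppa, Nppb and Ankrd1 was examined in the sinoatrial node of rats of the Dahl salt-sensitive strain SS/JrHsdMcwiCrl, which becomes hypertensive on salt. The node lies in the wall of the right atrium and sets the heartbeat. These 3 genes were chosen by their Ensembl identifiers (ENSRNOG00000008176, ENSRNOG00000008141 and ENSRNOG00000018598, in that order) from the 32285 in the deposited count table, and all 3 passed the filter on low counts with 16313 genes in all. Control rats ate chow with 0.4% NaCl and HFpEF rats, a model of heart failure with preserved ejection fraction, ate chow with 8% NaCl, both for 11 weeks. There were 4 libraries of ribosome-depleted total RNA per group, with 31774820 to 38889395 expected counts each. No allele or transgene is named for either group, and no group ate the high-salt chow without the disease model, so salt intake, hypertension and heart failure cannot be told apart. Separate animals are not stated for the libraries, so a p-value here reflects only how far these libraries spread, which may be technical. The table pairs no identifier with a gene name, so the labelled tissue was not checked against its marker genes here, and the names of the 3 genes are those supplied with their identifiers.

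Nppa and Nppb encode the precursors of atrial and B-type natriuretic peptide, hormones that heart muscle cells release when the chamber wall is stretched. Both peptides act on the receptor guanylate cyclase Npr1, which raises cyclic GMP in its target cells and promotes salt excretion and vasodilation. In the adult heart Nppa is a gene of working atrial muscle and Nppb responds more steeply to load. Ankrd1 encodes a muscle ankyrin repeat protein that sits with titin in the I-band of the sarcomere, also enters the nucleus, and is induced by mechanical strain. Levels of all 3 are widely used as readouts of cardiac load.

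In RefSeq (GRCr8), Nppb and Nppa are direct neighbours on the same chromosome, with 0 annotated genes between them. Their upstream stretches are shown because both genes were highest in the same 2 libraries (below), a pattern seen in 9.59% of tested genes. A link between the stretches and that pattern was not tested. The stretches were matched by symbol, which succeeded for 2 of the 3 genes. GRCr8 is not the build behind the counts (rn6), so its coordinates serve only to place these sequences. The Nppa stretch is the 250 bases before the gene's start, at chr5:163711934-163712183 on the + strand. The Nppb stretch is the first 197 bases of the same window, at chr5:163699758-163699954 on the + strand, and ends where the RefSeq record of the gene begins. That record begins 53 bases before the start used for the window, and distances below are counted from the start used for the window. Capitals mark matches on either strand to GATAA, the core bound by GATA factors, CATTCC, the M-CAT element bound by TEAD factors, AAGTG, the core bound by Nkx2-5, TATAAA, the TATA box, and CAGCTG, an E-box.
Nppa: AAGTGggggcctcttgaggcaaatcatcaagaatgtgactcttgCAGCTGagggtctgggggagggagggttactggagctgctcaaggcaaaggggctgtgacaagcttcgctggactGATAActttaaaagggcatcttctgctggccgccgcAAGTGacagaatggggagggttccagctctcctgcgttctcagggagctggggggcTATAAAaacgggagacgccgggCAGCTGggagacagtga
Nppb: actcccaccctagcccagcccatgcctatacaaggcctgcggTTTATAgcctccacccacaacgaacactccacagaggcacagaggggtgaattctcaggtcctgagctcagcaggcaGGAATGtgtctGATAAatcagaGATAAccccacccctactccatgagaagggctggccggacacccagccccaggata

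The Nppa stretch held 1 match to GATAA, which begins 131 bases before the start, 2 to AAGTG, 2 to CAGCTG, 1 to TATAAA, 39 bases before the start, and 0 to CATTCC. The Nppb stretch held 2 matches to GATAA, 120 and 109 bases before the start used for its window. Next to them was 1 match to CATTCC on the opposite strand at 131 bases, and TATAAA lay on the opposite strand at 208 bases. A further GATAA, 57 bases before that start, runs past the end of the printed bases and is not in capitals. Matches to AAGTG and CAGCTG numbered 0 in the Nppb window. No matches overlapped. Among 33469 RefSeq windows of 250 bases, 23.5% held GATAA, 12.1% CATTCC, 40.6% AAGTG, 12.9% TATAAA and 12.0% CAGCTG, so each of these short words is common. The words were chosen with the sequences in view, and a match is a description of letters, not of binding.

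None of the 3 genes differed between HFpEF and Control beyond the spread between libraries. In each of them 2 of the 4 HFpEF libraries, replicates 2 and 3, lay above all 4 Control libraries, 1 HFpEF library lay below all of them, and 1 lay within their range. The fitted means were higher in HFpEF by 1.36-fold for Nppa, 1.72-fold for Nppb and 1.22-fold for Ankrd1, but 0 of 3 passed edgeR's quasi-likelihood test after Benjamini-Hochberg adjustment over all genes at 0.05. Over all 16313 genes 1.94% passed. At an unadjusted p under 0.05 the count was also 0 of 3, against 19.6% of all genes. DESeq2 called 0 of 3, against 7.65% of all genes, and limma-voom 0 of 3, against 1.37%. HFpEF and Control libraries overlapped in all 3 genes, whereas 12.5% of tested genes had no overlap. In bulk RNA, fewer cells of a type and less RNA per cell cannot be told apart.

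Nppa, the atrial natriuretic peptide gene, stood at 3899, 5146, 4133 and 4158 normalised CPM (counts scaled to a common library size) in Control replicates 1 to 4. It stood at 4955, 7543, 8011 and 3057 CPM in HFpEF replicates 1 to 4. HFpEF replicates 2 and 3 were 1.74 and 1.85 times the Control mean, HFpEF replicate 4 was the lowest of all 8 libraries, and HFpEF replicate 1 fell inside the Control range. The group means were 4334 ± 554 CPM in Control and 5891 ± 2319 CPM in HFpEF (SD, n = 4 each). The log2 fold change was 0.44 with a standard error of 0.27, and its 95% interval ran from -0.17 to 1.05, that is from 0.891-fold to 2.07-fold (edgeR adjusted p = 0.406). A doubling of Nppa in the node therefore lay inside the interval, as did no change. Without HFpEF replicate 2 or 3 the log2 fold change was 0.30 or 0.26. Without HFpEF replicate 4 it was 0.66 and came nearest to a call (edgeR adjusted p = 0.0888, in a range of 0.0888 to 0.662 over 17 alternatives).

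Nppb, the B-type natriuretic peptide gene, varied most. Control replicates 1 to 4 held 91.3, 95.9, 132 and 134 CPM. HFpEF replicates 1 to 4 held 43.6, 349, 288 and 100.2 CPM. HFpEF replicates 2 and 3 thus reached 3.09 and 2.54 times the Control mean, while HFpEF replicate 1, at 0.385 times that mean, was below every other library. The highest HFpEF library was 8.02 times the lowest, against 1.46 times in Control. Counting error was small beside this, since even the lowest library had 1589 counts of Nppb, a counting error of 2.51%. The means were 113 ± 22.6 CPM in Control and 195 ± 146 CPM in HFpEF (SD, n = 4 each).

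The log2 fold change of Nppb was 0.79, its standard error 0.54 (edgeR adjusted p = 0.466, in a range of 0.147 to 0.800 over 17 alternatives). Its 95% interval, -0.44 to 2.02, ran from 0.735-fold to 4.05-fold, so these libraries leave the size of a difference in Nppb less well determined than that of the other 2 genes. The value depended on the library and on how libraries were averaged. Leaving out HFpEF replicate 1 gave 1.12, leaving out replicate 2 gave 0.35 and leaving out replicate 3 gave 0.54. With limma-voom, which averages on the log scale, it was 0.38.

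Ankrd1, the strain-induced ankyrin repeat gene, was the least different between the groups. Control replicates 1 to 4 stood at 1955, 1913, 2803 and 2521 CPM. HFpEF replicates 1 to 4 stood at 2088, 3802, 3553 and 1776 CPM. HFpEF replicates 2 and 3 were again the highest of the 8 libraries, at 1.65 and 1.55 times the Control mean, and HFpEF replicate 4 was the lowest. The means were 2298 ± 436 CPM in Control and 2805 ± 1021 CPM in HFpEF (SD, n = 4 each). The log2 fold change was 0.29 with a standard error of 0.25 and a 95% interval of -0.29 to 0.86, or 0.820-fold to 1.82-fold (edgeR adjusted p = 0.571, in a range of 0.284 to 0.872 over 17 alternatives). Leaving out HFpEF replicate 2, 3 or 4 gave 0.11, 0.15 or 0.45.

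**Figure D1:**
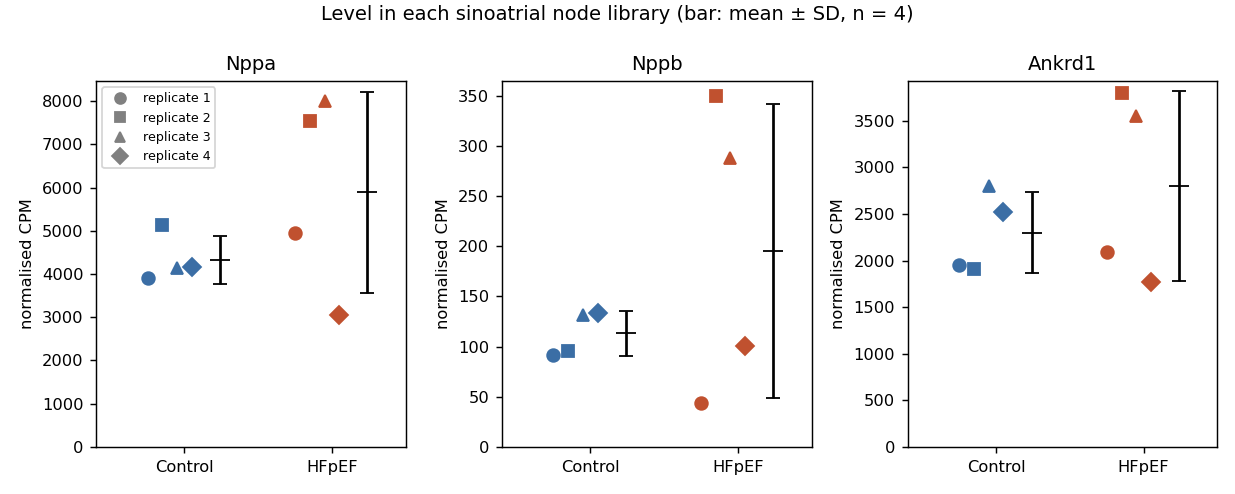
Normalised CPM of Nppa, Nppb and Ankrd1 in each library (symbols mark the replicate number), with the mean and SD of 4 libraries beside each group; the vertical axes start at 0 and differ between genes. HFpEF replicates 2 and 3 lie above all Control libraries in all 3 panels, and the other 2 HFpEF libraries lie within or below the Control range.

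**Figure D2:**
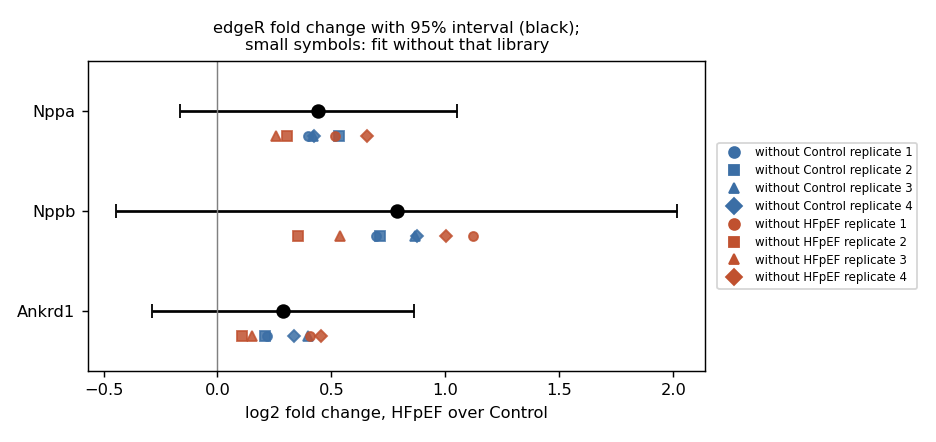
The log2 fold change of HFpEF over Control from edgeR with its 95% interval (black) for each gene, and the same value with 1 library left out (small symbols below it). All 3 intervals include 0, and the values without HFpEF replicates 2 or 3 lie to the left of the full fit.

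Against the other genes, the fold changes were on the high side, but their edgeR p-values were not among the smallest. Ordered by that p, Nppa, Nppb and Ankrd1 were number 5399, 6387 and 8173 of 16313. Over all tested genes the median log2 fold change was -0.0041 (quartiles -0.12 and 0.15), and 9.48% of genes had a value at or above that of Nppa, 4.68% at or above that of Nppb and 14.6% at or above that of Ankrd1. The pattern of libraries was not rare. HFpEF replicates 2 and 3 were the 2 highest libraries in 1565 of 16313 tested genes (9.59%), of which 48 passed edgeR's test. Along the first principal component of all tested genes (33.2% of the variance), HFpEF replicates 2 and 3 lay at 51.6 and 26.5 and HFpEF replicates 1 and 4 at 11.5 and 10.6, with Control between -30.9 and -17.2. The same 2 libraries that were high in the 3 genes were thus the farthest from Control along this component. The part of other cell types or of dissection in this was not tested, since marker genes could not be named.

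The spread between HFpEF libraries was large in all 3 genes, and largest in Nppb. On the log2 CPM scale the SD of Nppb was 0.29 in Control and 1.40 in HFpEF (n = 4 each). Of 2247 genes whose mean reached 64 CPM, 6 (0.267%), Nppb among them, had an SD in HFpEF at least as large. Here and below each such share includes the gene itself. For Nppa the SDs were 0.18 and 0.64, with 2.23% of these genes as variable in HFpEF, and for Ankrd1 0.27 and 0.55, with 3.03%. The median gene had an SD of 0.07 in Control and 0.13 in HFpEF. All 3 genes were also among the more variable within Control, where 13.2%, 4.85% and 5.74% of these genes had an SD at least as large as that of Nppa, Nppb and Ankrd1.

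A test of the difference in spread was added after the values were seen. Deviations were taken from each group's own mean before the labels were permuted, so the p of this test is approximate, not exact. The mean absolute deviation from the group mean was 0.25 in Control and 1.13 in HFpEF for Nppb (two-sided permutation p = 0.0286, the smallest that 70 splits allow), with a deviation larger in all 4 HFpEF libraries than in any Control library. It was 0.23 and 0.47 for Ankrd1 (permutation p = 0.0286) and 0.13 and 0.50 for Nppa (permutation p = 0.0571). The p of 0.0286 was also reached, with HFpEF more variable, by 13.5% of the 2247 genes, so it does not mark out Nppb or Ankrd1. With any of Control replicates 1 to 4 or HFpEF replicates 2 or 3 left out, the permutation p for Nppb was 0.0571 to 0.143. For Ankrd1 it was above 0.05 without each library in turn other than Control replicate 3. For Nppa it was 0.0286 without HFpEF replicate 1 and 0.0571 to 0.229 without any other library. Nppb had an HFpEF to Control ratio of SDs of 4.80, against a median of 1.65 over these genes, with 8.23% of them at or above it. For Nppa the ratio was 3.66 and for Ankrd1 2.01, which 38.1% of these genes reached.

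**Figure D3:**
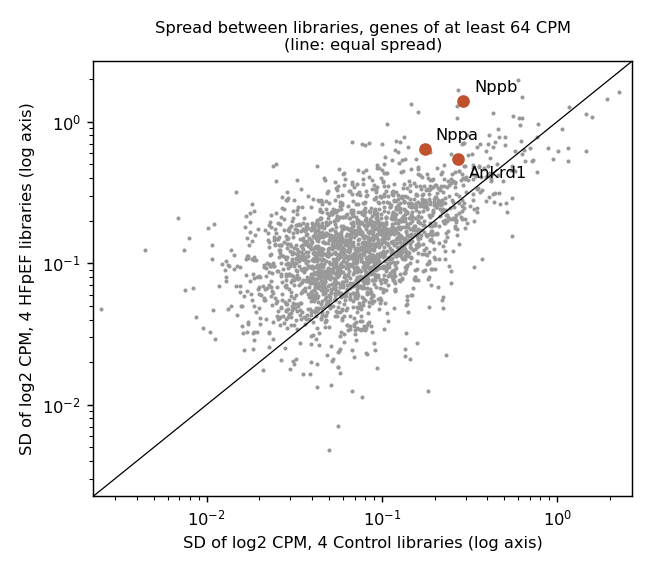
SD of log2 CPM over the 4 HFpEF libraries against that over the 4 Control libraries for each of the 2247 genes whose mean reached 64 CPM (grey), with log axes and the line of equal spread. Nppb, Nppa and Ankrd1 (orange) lie above the line and toward the top of the cloud, Nppb with 1.40 in HFpEF and 0.29 in Control.

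The 3 genes did not vary as a fixed unit. Ratios between them within a library were used to compare libraries; they are not per transcript length and say nothing of which gene is more abundant. In Control, Nppb came to 2.34%, 1.86%, 3.18% and 3.21% of the Nppa level in replicates 1 to 4. In HFpEF it came to 0.879%, 4.63%, 3.59% and 3.28%. HFpEF replicate 1 therefore combined an Nppa level inside the Control range with the lowest Nppb, and HFpEF replicate 4 combined the lowest Nppa with an Nppb level inside the Control range. The mean log2 ratio of Nppb to Nppa was -5.27 ± 0.38 in the Control libraries and -5.25 ± 1.08 in the HFpEF libraries (SD, n = 4 per group), a difference of 0.03 (exact two-sided permutation p = 0.943).

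Nppb and Ankrd1 kept a nearly constant ratio in the 4 Control libraries and not in the 4 HFpEF libraries, a contrast that was not tested. The log2 ratio of Ankrd1 to Nppb was 4.42, 4.32, 4.41 and 4.24 in Control replicates 1 to 4, an SD of 0.09. It was 5.58, 3.44, 3.63 and 4.15 in HFpEF replicates 1 to 4, an SD of 0.97, with replicate 1 above and the other 3 below all Control values. The group means, 4.35 and 4.20, differed by -0.15 (exact permutation p = 0.886). Without HFpEF replicate 1, the only HFpEF library above Control, the difference was -0.61 and the groups no longer overlapped. Leaving out that library fixed this separation in advance, so the exact permutation p = 0.0286, the smallest that 35 splits allow, supports no shift. Without HFpEF replicate 2 or 3 the sign of the difference turned, to 0.11 or 0.04. For Ankrd1 to Nppa the mean log2 ratio was -0.93 ± 0.38 in the Control libraries and -1.05 ± 0.21 in the HFpEF libraries (SD, n = 4 per group, p = 0.600 by the exact permutation test). For the 3 ratios the adjusted p was 0.943.

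Across the 8 libraries, Ankrd1 varied most closely with Nppb. Pearson's r of log2 CPM was 0.849 and Spearman's rho 0.738 (exact permutation p = 0.00647 and 0.0458, adjusted p = 0.0194 and 0.138 over 3 pairs). For Ankrd1 and Nppa r was 0.797 and rho 0.643 (exact permutation p = 0.0193 and 0.0962, adjusted p = 0.0290 and 0.144). For Nppb and Nppa r was 0.643 and rho 0.476 (exact permutation p = 0.0807 and 0.243, the same after adjustment). Leaving out HFpEF replicates 2 and 3, the 2 libraries farthest from the median of Ankrd1, brought r down to 0.433 with Nppb and 0.201 with Nppa. The relation of Ankrd1 with Nppa thus rests on those libraries. For Ankrd1 and Nppb the value depended on which libraries were left out, since r was 0.926 without HFpEF replicates 1 and 2, the farthest from the median of Nppb. For Nppb and Nppa, r was 0.809 without HFpEF replicates 1 and 2, the farthest for Nppb, and -0.393 without HFpEF replicates 2 and 3, the farthest for Nppa. The libraries share 1 scaling, and r over them mixes the difference between groups with the spread within them. Within the 4 Control libraries alone r was 0.955 for Ankrd1 and Nppb, -0.406 for Ankrd1 and Nppa and -0.272 for Nppb and Nppa.

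**Figure D4:**
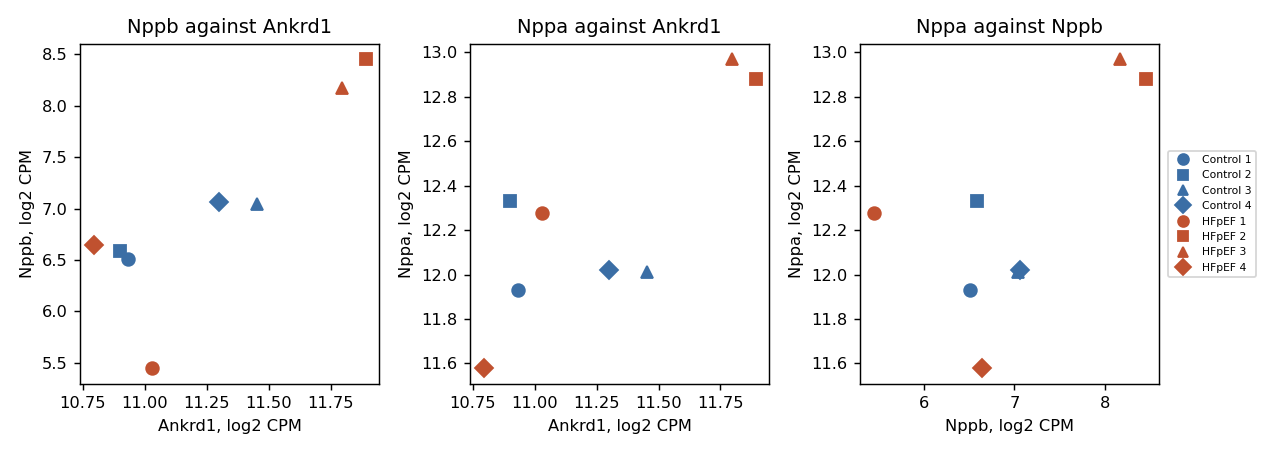
Log2 CPM of each pair of genes in the 8 libraries, Control in blue and HFpEF in orange, with symbols for the replicate number. HFpEF replicates 2 and 3 lie apart at the upper right of each panel, and HFpEF replicate 1 lies low in Nppb (43.6 CPM) for its level of the other 2 genes.

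Many genes had a higher r with a member than the other members had, but with 16312 genes and 8 libraries some will in any case. The number to be met by chance was not tested. By Pearson's r of log2 CPM over the 8 libraries, which is given as a description, Ankrd1 was number 461 of 16312 genes in likeness to Nppa. It was number 145 of 16312 in likeness to Nppb. An r over 0.9 was reached by 79 of 16312 genes with Nppa, 44 with Nppb and 107 with Ankrd1. The gene most like Ankrd1 was ENSRNOG00000000373, with an r of 0.980. It ran only from 43.3 to 57.9 CPM, with HFpEF replicates 2 and 3 highest and HFpEF replicate 4 lowest, and it differed by 0.12 on the log2 scale (edgeR adjusted p = 0.564). The gene most like Nppa was ENSRNOG00000052061, with an r of 0.974 and a level of 0.984 to 1.998 CPM, low enough for counting error to matter (log2 fold change 0.35, edgeR adjusted p = 0.439). Neither identifier could be named.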

How the data were processed

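The authors deposited expected counts per Ensembl gene, not normalized, as 1 table for the series. RSEM can split a read among genes, so a count need not be whole; all those of the 3 genes were whole (within 0.005). Per the submitters' processing notes, Bowtie2 2.1.0, RSEM 1.2.15 and the build rn6 were used. The use of strand is not given in the sources at hand, so antisense reads may be included. Counts were rounded, filtered with filterByExpr (99.95% of counts kept), scaled by TMM and tested on all 16313 genes with edgeR 4.0.16 (R 4.3.3, quasi-likelihood, two-sided, Benjamini-Hochberg, threshold 0.05). This procedure was tested on simulated data with equal spread in both groups, so not under the unequal spread seen here. Standard errors and intervals were derived from the F statistic. Log2 CPM used a prior count of 2. Values with 1 number per library were compared by permutation tests, exact except for deviations from a group mean. DESeq2 1.42.0, limma-voom (limma 3.58.1), other scalings and filters, a replicate block and each library left out were alternatives. Depths allow levels down to 0.0771 to 0.0944 CPM (3 counts, counting error only).

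The genes, lists and tests were chosen with earlier results of these data known. Named were the 3 genes and, by the highest r, the gene most like each, at most 2 higher and 2 lower; the gene most like Nppb fell outside that limit. The reference table matched 0 of 32285 identifiers to symbols, so the lists of natriuretic pathway, stretch and cell type marker genes were not run.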

Additional observations from a re-analysis of the deposited data

How the results depend on the processing

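For Nppa, Nppb and Ankrd1 the direction and the missed threshold held in all 17 alternatives each, with log2 fold changes of 0.26 to 0.66, 0.35 to 1.12 and 0.11 to 0.45. The replicate number as a block, for which the labels give no pairing, gave 0.35, 0.38 and 0.23 (edgeR adjusted p = 0.495, 0.761 and 0.671). Same-numbered libraries correlated at -0.02, -0.06, 0.07 and -0.16 in their deviations. Over all genes the count of 316 called became 6 with that block and 1248 with DESeq2, and 22 to 332 with 1 library left out. With 1 library left out, the difference in log2 ratio was -0.25 to 0.55 for Nppb to Nppa, -0.29 to 0.000454 for Ankrd1 to Nppa and -0.61 to 0.11 for Ankrd1 to Nppb, so each range includes both signs. The difference in mean absolute deviation, added after seeing the data, was 0.16 to 0.47 for Nppa, 0.49 to 1.02 for Nppb and 0.13 to 0.30 for Ankrd1. The 2 lists of related genes were not run under any setting, for want of names. Counts ran from 1589 for Nppb upward, so counting error is small beside these ranges.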
